A study of Mus musculus with 2 samples.

Results

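Lsamp, Ntm, Opcml and Negr1 are the 4 long members of the IgLON family of cell adhesion genes, taken by their symbols from the 37273 genes of the GENCODE M1 annotation of the mouse build NCBI37/mm9. Of the 22132 R-loop peaks mapped in mouse neural stem/progenitor cells (NSPCs), 13 overlapped them by at least 1 bp. The list came from DNA:RNA immunoprecipitation with sequencing (DRIP-seq), in which the S9.6 antibody pulls down RNA:DNA hybrids from digested genomic DNA. The cells were primary NSPCs grown from the frontal brain of C57BL/6 mice at postnatal day 7, and the study's text places them under mild replication stress from aphidicolin, an inhibitor of replicative DNA polymerases. There were 2 labelled libraries, a DRIP library and its input. The DRIP list is a single set of positions that joins replicates, and the input was not analysed here. With 1 list there was no untreated group, no error between replicates and no depth, so every value is a description of that list and no difference was tested.

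IgLON proteins are small members of the immunoglobulin superfamily, held at the neuronal surface by a glycosylphosphatidylinositol anchor, where they bind each other as homodimers and heterodimers. Lsamp encodes the limbic system-associated membrane protein, Ntm neurotrimin, Opcml the opioid-binding cell adhesion molecule OBCAM, and Negr1 neuronal growth regulator 1, also called kilon. They act in neurite outgrowth, axon targeting and synapse formation. An R-loop forms where a transcript pairs with its template strand and leaves the other DNA strand single, and a displaced strand rich in G favours it. The 4 long genes spread a short coding sequence over very long introns, so nearly all of the DNA in which an R-loop could form is intronic.

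Ntm held 10 of the 13 peaks, Lsamp 2, Opcml 1 and Negr1 none. The order of the genes by peaks was not their order by length. Opcml, the longest, spans 1135 kb on chromosome 9 (chr9:27598360-28732995, plus strand, ENSMUSG00000062257). Ntm spans 968 kb of the same chromosome (chr9:28802335-29770726, minus strand, ENSMUSG00000059974). Negr1 spans 755 kb (chr3:156224758-156979409, plus strand, ENSMUSG00000040037) and Lsamp 649 kb (chr16:41532971-42181792, plus strand, ENSMUSG00000061080). Per Mb of gene, this gave 10.3 peaks in Ntm, 3.08 in Lsamp, 0.881 in Opcml and 0 in Negr1. Peaks covered 1.40% of the bases of Ntm, 0.142% of Lsamp and 0.0501% of Opcml. Together the genes carried 3.71 peaks per Mb over 3.51 Mb, and without Ntm the other 3 genes carried 1.18 per Mb. The autosomes carried 9.12 per Mb of known sequence, and all protein-coding genes of at least 300 kb together carried 4.88 per Mb.

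**Figure D1:**
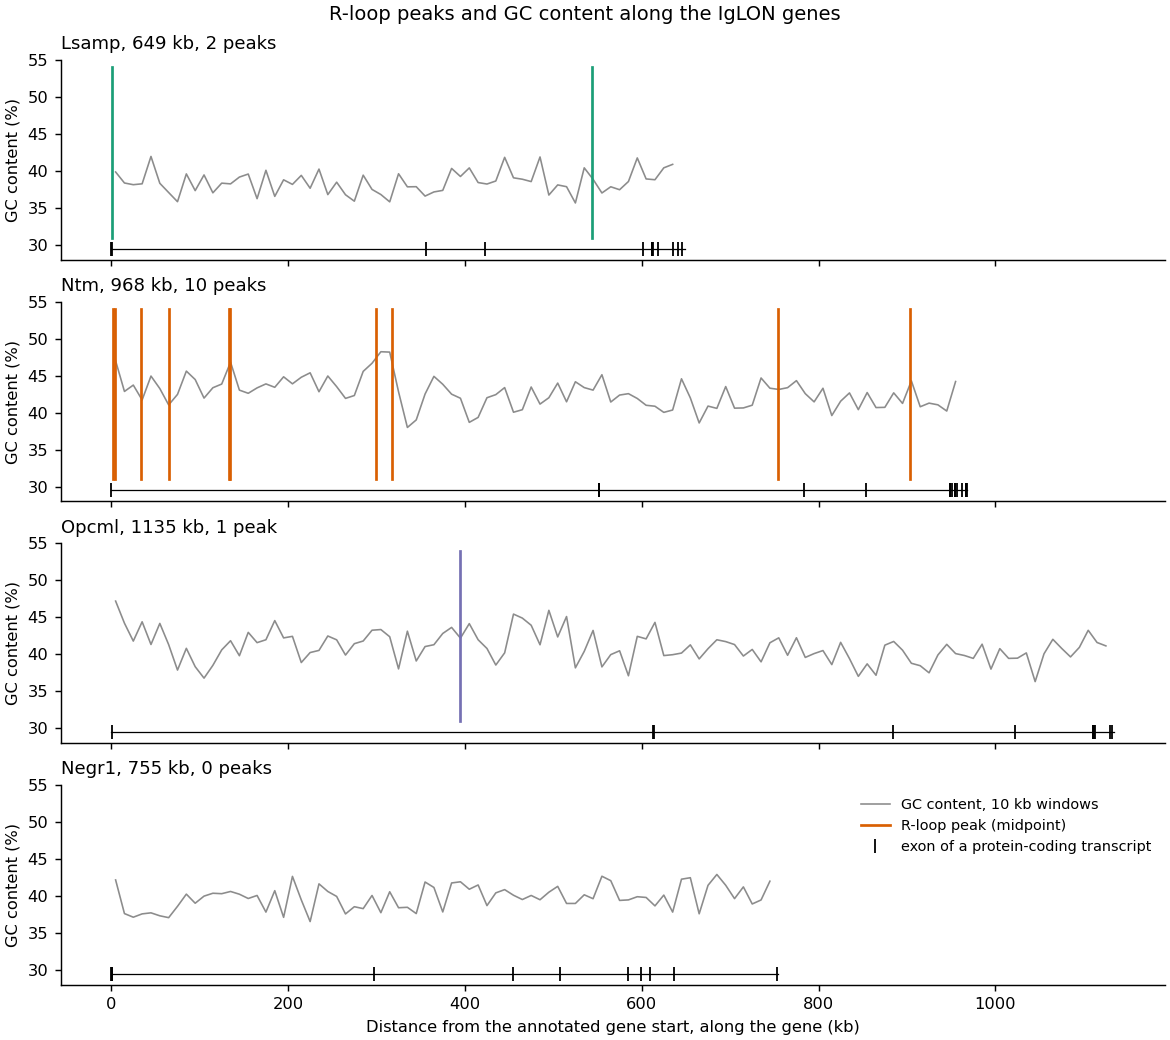
Position of the R-loop peaks along Lsamp, Ntm, Opcml and Negr1, by distance from the annotated gene start in kb (all genes drawn from start to end). Coloured lines mark peak midpoints, the grey line is the GC content in percent of 10 kb windows and black ticks are exons of protein-coding transcripts. Ntm carries 10 peaks, 6 of them within 150 kb of its start, and Negr1 carries none.

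The most skewed stretches of some of these peaks are printed below, picked as extremes, so they do not stand for whole peaks. For each peak, the 60 bp outside the gene's exons in which the counts of G and C differed most were read from the coding strand, which is the strand displaced when the gene's own transcript forms the hybrid. Capitals mark the base in excess. The first 3 stretches are shown because they carry the simple repeats of the Lsamp and Opcml peaks. The others are shown because they hold the highest counts of G or of C among the stretches of all Ntm peaks. All are intronic. They lie, in order, at chr16:41533665-41533724 and chr16:42076803-42076862 (plus strand), chr9:27993302-27993361 (plus strand), and chr9:29016448-29016507, chr9:29453808-29453867 and chr9:29636941-29637000 (minus strand).
Lsamp peak 1: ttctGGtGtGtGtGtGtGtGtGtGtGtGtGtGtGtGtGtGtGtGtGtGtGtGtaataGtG
Lsamp peak 2: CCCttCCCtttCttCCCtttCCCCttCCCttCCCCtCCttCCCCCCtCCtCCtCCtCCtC
Opcml peak 1: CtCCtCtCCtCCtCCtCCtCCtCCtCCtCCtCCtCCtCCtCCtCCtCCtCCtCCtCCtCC
Ntm peak 9: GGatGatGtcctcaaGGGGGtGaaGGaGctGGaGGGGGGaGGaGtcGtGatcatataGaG
Ntm peak 8: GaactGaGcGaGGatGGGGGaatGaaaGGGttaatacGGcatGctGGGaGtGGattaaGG
Ntm peak 5: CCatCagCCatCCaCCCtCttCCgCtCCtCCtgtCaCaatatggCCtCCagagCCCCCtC
The Lsamp stretch near its start is a TG repeat, with 27 G and 1 C. The second Lsamp stretch and the Opcml stretch hold no purine at all, with 38 C and 22 T in Lsamp and 40 C and 20 T in Opcml. The Ntm stretches are not repeats and hold all 4 bases.

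Lsamp was the gene whose first peak lay nearest its start. That peak (chr16:41533377-41533996, 620 bp) began 406 bp into the gene, covered 268 bp of exon and ran on into the first intron, an intron of 355 kb. It had a GC content of 54.7% and a GC skew of 0.13 (the number of G less that of C, over G and C together, counted along the coding strand). The TG repeat printed above lies in its intronic part. The second peak (chr16:42076752-42077053) was 302 bp wide and lay 544 kb downstream in the third intron, with a GC content of 46.4%. Its skew was -0.57, from 30 G against 110 C on the coding strand, and its longest run of C and T alone was 119 bp. The G-rich strand at this peak is therefore the template strand of Lsamp.

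Opcml carried its only peak in the first intron, 395 kb from the start (chr9:27992913-27993481, 569 bp). The coding strand held 38 G and 216 C there, a skew of -0.70, which was the most negative of the 13 peaks. A single run of 314 bp in it contained C and T alone. The GC content was 44.6%. On both sides of this peak the list was empty for a long way, over 789 kb upstream and 803 kb downstream.

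Runs of this kind are not rare in the genes. Taking runs of at least 60 bp made only of C and T, or only of A and G, on the coding strand, a length chosen after the peaks had been seen, Opcml held 68, Ntm 49, Lsamp 40 and Negr1 19. Of these, 1 in Opcml and 1 in Lsamp touched a peak. In Ntm and Negr1 none did, and the longest such run in an Ntm peak was 21 bp. Among all peaks under 1 kb in the list, 18.4% of 9140 held such a run, compared with 2.95% of 8467 windows of the same widths placed 10 kb past each peak. Among wider peaks the run was present in 1951 of 12992, and in 11.8% of their windows. TG repeats of at least 15 copies, read on either strand, were present 50 times in Lsamp, where 2 lay in peaks, and 87 times in Ntm, 89 in Opcml and 75 in Negr1, where none did. Among all peaks under 1 kb in the list, 17.4% held such a repeat, compared with 3.85% of their windows. Among wider peaks the shares were 21.0% and 18.0%. How well reads can be placed in such repeats was not measured.

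The 10 Ntm peaks were all intronic, and 8 of them lay in the first intron, which spans 551 kb and makes up 56.9% of the gene. The peaks clustered towards the start. The first 2 began 1.06 kb and 3.46 kb into the gene (chr9:29768728-29769667 and chr9:29766662-29767264), with widths of 940 bp and 603 bp, GC contents of 50.5% and 45.8% and skews close to 0 (0.06 and 0.04). The third and the fourth lay 33.2 kb and 65.0 kb from the start (chr9:29736291-29737533 and chr9:29704719-29705756), were 1.24 kb and 1.04 kb wide, and had GC contents of 43.8% and 49.7%. The third was the least GC-rich of all 13 peaks, and its skew was -0.25.

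The fifth and the sixth Ntm peaks were neighbours with 1 base between them (chr9:29636771-29637701 and chr9:29636482-29636769), 133 kb into the gene, so that they can be read as 1 interval of 1.22 kb. The seventh and the eighth formed another group near 300 kb. The seventh (chr9:29471190-29471560) was 371 bp wide at 299 kb and had a GC content of 54.4%, the highest of the Ntm peaks. The eighth (chr9:29451653-29454292) was 2.64 kb wide at 316 kb and had a GC content of 49.3% and a skew of 0.09, the highest of the Ntm peaks. The profile of 10 kb windows along the gene has its maximum at this group.

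The last 2 Ntm peaks lay apart from the others and were among the widest. The ninth (chr9:29015222-29018390) was 3.17 kb wide in the second intron, 752 kb from the start, and was the widest of the 13. The tenth (chr9:28866262-28868574) was 2.31 kb wide in the fourth intron, 902 kb from the start, and covered the start of Gm15520, a noncoding transcript that runs antisense to Ntm from position 28867384. A hybrid there could hold RNA of either gene, and the list does not give strand. Of the 10 genes annotated inside the members, most of them noncoding, Gm15520 was the one with a peak.

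Over the 13 peaks, 12 covered no exon of the member and 10 lay in a first intron. The first intron alone makes up 54.8% of Lsamp, 56.9% of Ntm and a similar share of Opcml, and nearly all bases of the genes are intronic. These counts alone therefore do not set the peaks apart from the structure of the genes. The matching shares were not counted for peaks of other long genes. Each gene was divided along its length into 10 equal segments, and 5 of the 13 peaks (38.5%) had their midpoint in the segment next to the start, 4 of them in Ntm. In all protein-coding genes of at least 300 kb, 16.2% of peaks fell in that segment and 15.8% in the segment at the end of the gene. Lsamp and Opcml had no peak in the end segment, and Ntm had 1.

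The background for these counts is the share of genes that carry a peak at all. Over the 22367 protein-coding genes, 39.6% held at least 1 peak. A long gene offers more sequence for a peak, so the 528 protein-coding genes of at least 300 kb were taken as the closer background, and 68.2% of these held at least 1 peak. The 3 of 4 IgLON genes with a peak were near this background. A count of at least 10 was reached by 5.49% of the long genes, 29 in number, and Ntm was one of them. This limit equals the count of Ntm itself, and 25 long genes held more peaks. With peaks closer than 1 kb merged, which joins the Ntm neighbours that have 1 base between them, Ntm held 9 and fell below the limit. The share of long genes that reach the limit was not recomputed after merging. Fewer peaks than in Ntm were counted in 499 of the 528, fewer than in Lsamp in 301 and fewer than in Opcml in 168. Those 168, Negr1 among them, held none. The median long gene held 1 peak, with quartiles of 0 and 3.

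**Figure D2:**
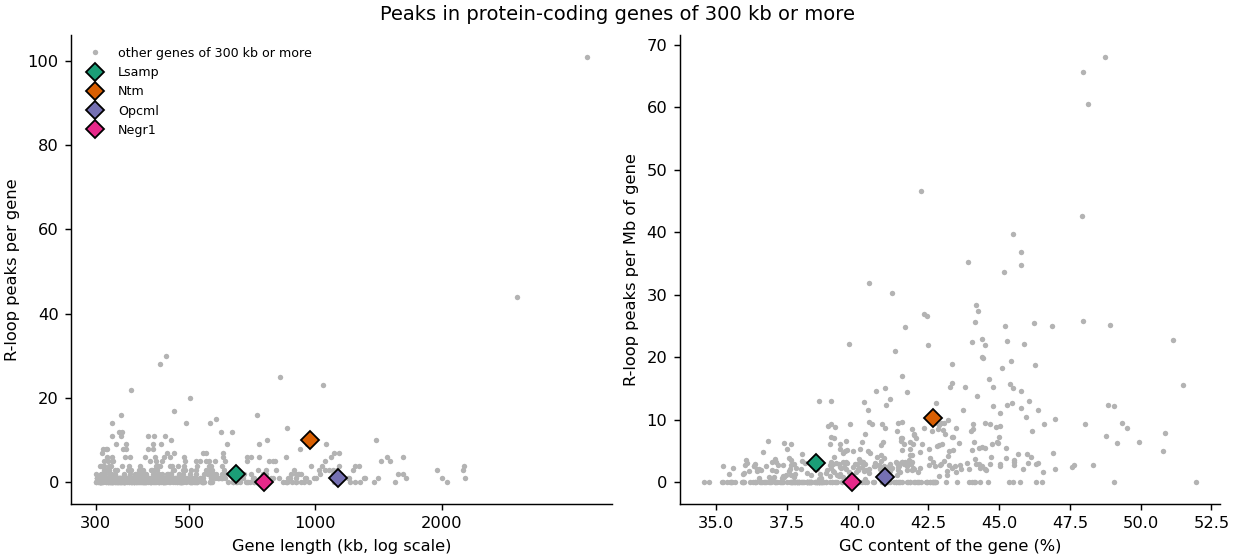
R-loop peaks in the 528 protein-coding genes of at least 300 kb. The left panel plots peaks per gene against gene length in kb on a log axis, and the right panel peaks per Mb against the GC content of the gene in percent. Each point is a gene and diamonds are the IgLON genes. Ntm, with 10 peaks, lies above most genes of its length, while Opcml, which is longer, holds 1.

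Peaks were denser in long genes of higher GC content. Across the 528 genes, peaks per Mb and GC content had a Spearman's rho of 0.52 (Pearson's r 0.46), and peaks per Mb, a measure already divided by length, and length a rho of -0.07. These are correlations across genes of 1 list, and genes are not independent replicates. Split into 4 equal groups by GC content, 43.2% of the long genes with the lowest GC content held a peak, and the share was 66.7%, 73.5% and 89.4% in the following groups. Lsamp, at 38.5%, belonged to the first group and Negr1, at 39.8%, to the second. Opcml at 41.0% and Ntm at 42.7% both belonged to the third, where the median gene had 1 peak and 2.89 peaks per Mb. Of the 528 genes, 368 had a lower GC content than Ntm and 271 a lower one than Opcml.

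Genes nearest in length differed in their counts too. Beside Ntm stood Sox5, a transcription factor gene, with 9 peaks, Cadm2 with 0, Sdk1 with 4 and Park2 with 1. Cadm2 and Sdk1 also encode adhesion proteins of the immunoglobulin superfamily. The genes nearest Opcml were Dab1, an adaptor in reelin signalling, with 3 peaks, Galntl6 with 2, Kcnip4 with 1 and the receptor phosphatase gene Ptprt with 7. Beside Lsamp, Cntnap5c had 1 peak and Arhgap15, Mctp1 and Nkain3 none. All 4 neighbours of Negr1 in length carried peaks, with 3 in Bai3 and 2 each in Dlgap2, Dgkb and Grid1.

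Ntm and Opcml lie tail to tail on chromosome 9, and their ends are 69.3 kb apart. Together with the DNA between them they form a block of 2.17 Mb with 12 peaks. The only peak between them (chr9:28796786-28798273) lay 4.06 kb past the end of Ntm and 63.8 kb past the end of Opcml. On the other side of Ntm, the next peak (chr9:29785471-29786714) stood 14.7 kb upstream of its start. The nearest protein-coding genes outside the pair were Snx19, which encodes a sorting nexin, with 2 peaks and Spata19 with none. Lsamp had a peak of 3.12 kb width (chr16:42190975-42194089) 9.18 kb past its end, and no peak in the 1 Mb before its start. Its neighbours were Gap43, a growth cone protein gene 66.8 kb away, with 0 peaks, and Igsf11 with 1.

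Negr1 lay inside a peak-free stretch of 2.19 Mb (chr3:155473531-157667107). Of the 22111 gaps between neighbouring peaks in the list, 99 were longer. The nearest peaks were 751 kb before its start and 688 kb past its end. Its protein-coding neighbour Zranb2, 218 kb away, lay in the same stretch. Its neighbour on the other side, Lrriq3, lay 1368 kb away, beyond the stretch, and held no peak either. A gene without a peak in the list is a gene in which none was called. The list gives no depth, so an amount of hybrid below the caller's limit cannot be told apart from none.

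No IgLON gene start lay inside a peak, where 14.9% of all protein-coding starts and 9.85% of the starts of long genes did. Within 2 kb of the start, Lsamp and Ntm had a peak, and 15.9% of the long genes did. The 120 bp before each annotated start are printed to show how the starts differ, in coding orientation and with capitals marking each CG dinucleotide, the site of DNA methylation in mammals. They lie at chr16:41532851-41532970 (plus), chr9:29770727-29770846 (minus), chr9:27598240-27598359 (plus) and chr3:156224638-156224757 (plus).
Lsamp upstream: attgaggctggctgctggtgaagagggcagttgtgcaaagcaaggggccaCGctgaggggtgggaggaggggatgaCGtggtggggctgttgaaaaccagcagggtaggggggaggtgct
Ntm upstream: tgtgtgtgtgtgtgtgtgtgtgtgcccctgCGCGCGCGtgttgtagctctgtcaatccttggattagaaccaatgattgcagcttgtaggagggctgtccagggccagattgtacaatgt
Opcml upstream: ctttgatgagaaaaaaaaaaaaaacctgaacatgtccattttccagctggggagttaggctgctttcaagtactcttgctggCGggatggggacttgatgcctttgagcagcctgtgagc
Negr1 upstream: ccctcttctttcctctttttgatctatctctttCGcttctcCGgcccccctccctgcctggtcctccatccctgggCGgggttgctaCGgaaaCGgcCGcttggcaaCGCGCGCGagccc
Negr1 held 10 CG in this window, Ntm 4, Lsamp 2 and Opcml 1. A CG was present in 85.0% of the same windows before all protein-coding starts, with a median of 5. The Negr1 window also overlaps exons of 4930570G19Rik, a noncoding gene.

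Negr1 had the most CpG-rich and GC-rich start of the 4 and no peak near it. Within 1 kb on each side of the start its GC content was 60.2% and its CpG observed over expected ratio, which is low where methylated CpG has decayed, was 0.66. Lsamp had 52.3% and 0.36 there, Opcml 49.7% and 0.30, and Ntm 46.7% and 0.48. Over all protein-coding genes, starts with a peak within 2 kb had a median GC content of 55.9% and a median CpG ratio of 0.65 (n = 4967), and starts without one 49.5% and 0.38 (n = 17400). The 2 IgLON starts with a peak nearby were thus below the first median, and Negr1, without one, was above it. A start as GC-rich as that of Negr1 was found in 23.7% of the first set and in 6.06% of the second. In the first kb after the start the skew was 0.16 in Ntm, 0.12 in Lsamp, 0.06 in Negr1 and 0.05 in Opcml. These values are for the outermost annotated start and depend on that choice. From the other GENCODE M1 starts the skew ran from -0.09 to 0.14 in Opcml and was -0.04 and -0.05 in Negr1. It ran from -0.13 to 0.13 in Lsamp and from -0.01 to 0.17 in Ntm.

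**Figure D3:**
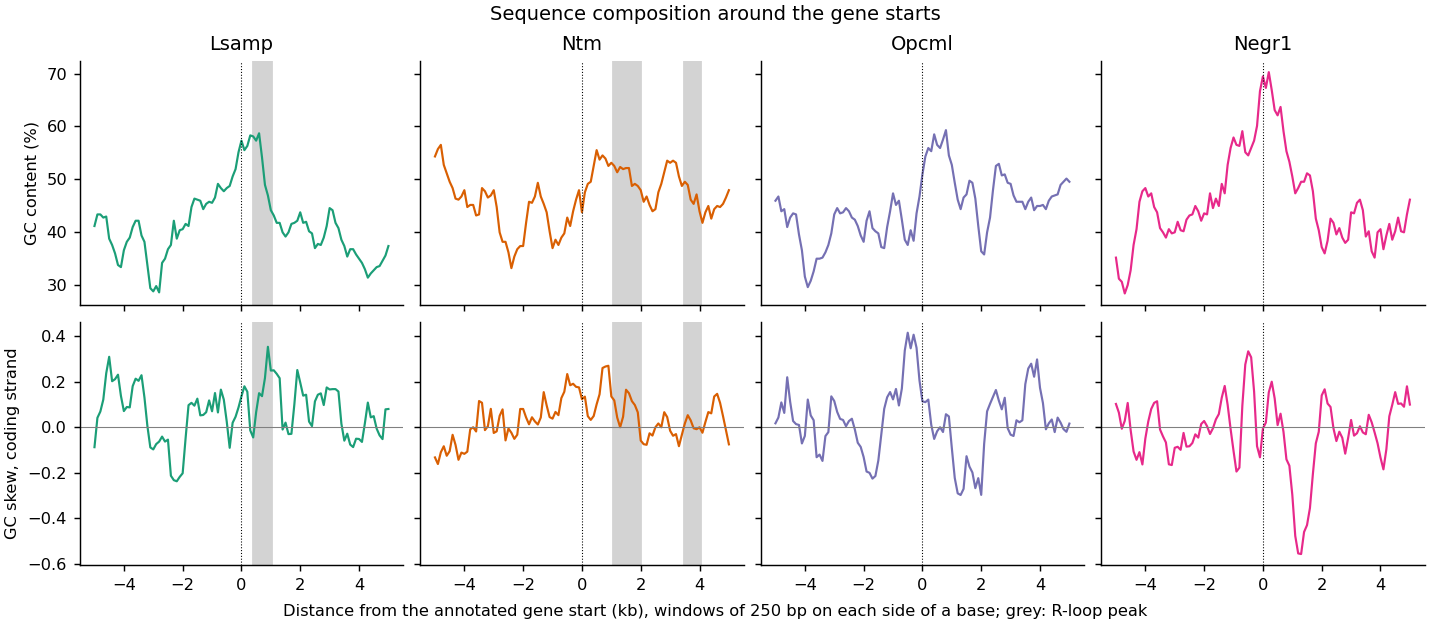
GC content in percent (upper row) and GC skew of the coding strand (lower row) in windows of 250 bp on each side of a base, within 5 kb of the annotated start of each gene, the dotted line. Grey bands are R-loop peaks. Lsamp and Ntm have peaks within 2 kb of the start, whereas Negr1 has the most GC-rich start and no peak.

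Both chromosome 9 genes also have internal starts that are richer in CpG than their first one. In Ntm, the transcript starts at 29219789 and 29219321 had GC contents of 57.1% and 58.6% and CpG ratios of 0.66 and 0.63, and the nearest peak was 201 kb away. In Opcml, the 4 transcript starts between 28210734 and 28211754 had GC contents of 54.2% to 58.0% and CpG ratios of 0.57 to 0.61, and the nearest peak was over 217 kb away. Lsamp has a start further upstream in RefSeq, at 39984477 by a match of its promoter sequence to mm9. It lies 1.55 Mb before the annotated start, with no peak between, so counted from there Lsamp held 2 peaks in 2197 kb, or 0.910 per Mb.

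Every gene with peaks was richer in G and C inside them than outside. In Lsamp the bases in peaks had a GC content of 52.0% and the rest of the gene 38.5%, a difference of 13.4 percentage points. Of these 922 bases in peaks, 620 belonged to the first peak, near the gene start. The difference was 4.86 points in Ntm (47.5% and 42.6%) and 3.66 in Opcml (44.6% and 41.0%). Over the pooled bases of the 3 genes it was 6.66 points, and against the 5 kb on each side of the peaks 3.92. The pooled value also carries differences between the genes. Ntm, the most GC-rich of the 3, supplied 13536 of the 15027 bases in peaks but 954856 of the 2736823 outside. The 13 peaks ranged from 43.8% to 54.7%, with a median of 47.9% and a mean of 48.4% ± 3.50 (SD over 13 peaks of 1 list). All peaks in the list had a median of 48.7% and those of long genes 47.3%. Against the 5 kb on each side, the second Ntm peak was the exception, at 45.8% and 46.7%. Near the starts of Lsamp and Ntm, some sequence outside peaks was richer than their first peaks. The window of 250 bp on each side of the Lsamp start had 57.3%, against 54.7% in its first peak. In Ntm, the same window 0.5 kb into the gene had 55.5%, against 50.5% in its first peak. Windows of 1 kb at least as rich as a peak of the same gene were rare in some cases and common in others. They made up 0.309% of Lsamp for its first peak, 0.310% of Ntm for the seventh, and 30.4% and 37.5% of Ntm for the ninth and the third. The windows were not matched to peak width. In the order given, these peaks were 620 bp, 371 bp, 3.17 kb and 1.24 kb wide, so the rare cases were the short peaks.

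**Figure D4:**
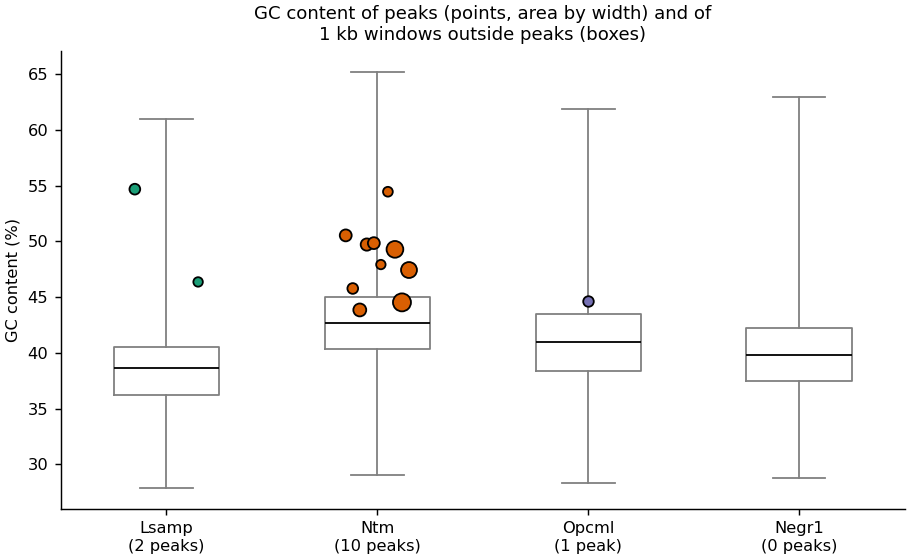
GC content in percent of each R-loop peak (points, larger for wider peaks) and of the 1 kb windows of the same gene that touch no peak (boxes with median and quartiles, whiskers to the lowest and highest window). The first Lsamp peak, at 54.7%, and the seventh Ntm peak, at 54.4%, stand highest.

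The skew of the IgLON peaks spread to both sides of 0, and 5 of 13 (38.5%) held more G than C on the coding strand. Of the 11355 peaks in the list that lie in a single protein-coding gene, 64.9% did. The share was 56.6% for those under 1 kb and 71.1% for wider ones. Skews of -0.5 or lower, a limit chosen after the peaks had been seen, were present in 2 of the 13, the second Lsamp peak and the Opcml peak. Across the 11355 peaks the share was 4.15%, and 3.96% had skews of 0.5 or higher. Both extremes belonged mainly to short peaks. Under 1 kb, 8.97% of peaks had such a low skew and 8.20% such a high one, against 0.554% and 0.800% of wider peaks. Both IgLON peaks with the low skew were under 1 kb.

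Widths ran from 288 bp to 3.17 kb. The median of the 13 was 931 bp, next to 925 bp for peaks in long genes and 1322 bp for all peaks. A width of at least 1 kb was reached by 5 of the 13, all of them in Ntm, and by 48.0% of peaks in long genes. The peaks of Lsamp and Opcml were all below that width.

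The DNA was cut before immunoprecipitation with EcoRI (GAATTC), HindIII (AAGCTT), BsrGI (TGTACA), SspI (AATATT) and XbaI (TCTAGA), so the positions of these sites, which read the same on both strands, set the pieces that the antibody could pull down. The sites stood at 2.13 per kb in Lsamp, 2.10 in Negr1, 1.96 in Opcml and 1.82 in Ntm, against 1.85 per kb of the autosomes. In Ntm, the gene with most peaks, they were thus the least dense of the 4. Each of these sites is mostly A and T, and Ntm also had the highest GC content of the 4, at 42.7%. Whether site density goes with peaks apart from GC content was not tested. Inside the 13 peaks there was 1 site in 15027 bp, or 0.067 per kb, and 12 of the 13 peaks (92.3%) contained none. Of the 16476 peaks in the list within the same range of widths, 62.6% contained none, and their density was 0.485 sites per kb.

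Many of the fragments that held IgLON peaks were long ones, though not all. A peak without a site inside must lie in a fragment at least as long as itself. The median fragment of Ntm was 0.374 kb long, and the median base of the gene, with bases ordered by the length of their fragment, lay in a fragment of 0.959 kb. The fragments holding the Ntm peaks measured 0.928 to 4.47 kb, the shortest being that of the second peak. The ninth peak lay in the longest of the 1760 fragments of the gene, the tenth in a fragment of 4.27 kb exceeded in length by 2 others, and the eighth in one of 4.10 kb exceeded by 3. Fragments of at least 3 kb numbered 9 in Ntm, and 4 of them held a peak. At least 2 kb was reached by 47, of which 6 held a peak. In Lsamp the first peak lay in a fragment of 3.37 kb that also spans the gene start and was the longest of 1384, and the second in one of 1.26 kb. Opcml had 53 fragments of at least 2 kb, none with a peak, and its peak lay in a fragment of 1.05 kb. Negr1 had 19 such fragments and no peak. Over the 13 peaks the median fragment measured 2.05 kb, and 15.2% of autosomal bases lie in fragments as long as the one at the median. For all peaks of like width those values were 1.97 kb and 16.5%, so long fragments were a feature of the whole list. The part of fragment length in the number and position of peaks was not tested.

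**Figure D5:**
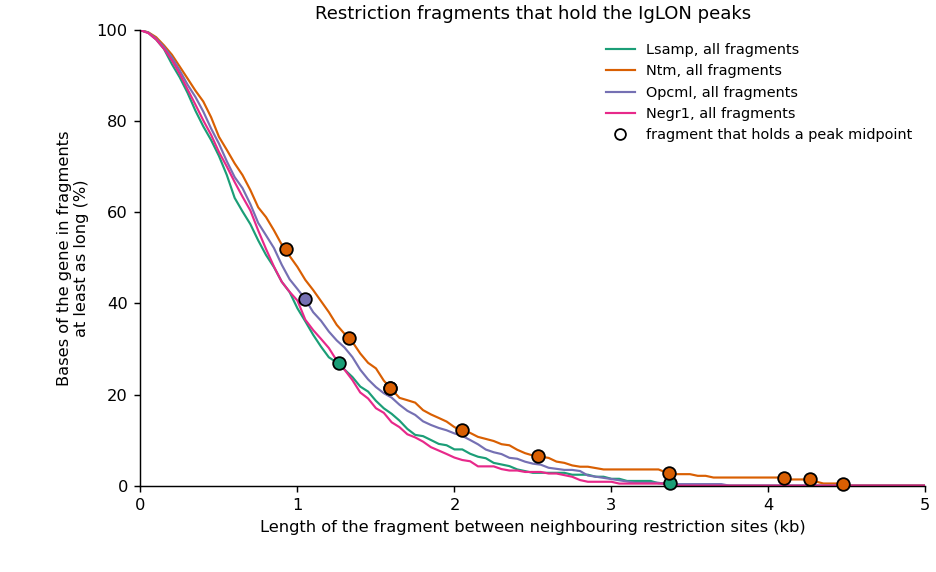
Length of the restriction fragments that hold an IgLON peak. Lines give, for each gene, the percent of its bases in fragments at least as long as the length in kb on the horizontal axis, and points mark the fragments with a peak midpoint. The points of Ntm reach 4.47 kb, where the line is close to 0%.

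The family has another member, Iglon5, a gene of 17.2 kb on chromosome 7 (chr7:50728277-50745445, minus strand, ENSMUSG00000013367), which is compact and has a GC content of 52.1%. It held 2 peaks, or 116 per Mb, and they covered 25.7% of it. The first (chr7:50735148-50735786, 639 bp) had a skew of -0.77 and a run of 265 bp of C and T alone on the coding strand, a longer run than in any Ntm or Lsamp peak. Its most skewed 60 bp, at chr7:50735161-50735220, are shown for comparison with the Lsamp and Opcml stretches printed above, again with capitals for the base in excess.
Iglon5 peak 1: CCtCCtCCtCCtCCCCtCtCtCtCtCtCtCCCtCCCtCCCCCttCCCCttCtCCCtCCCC
The second (chr7:50728521-50732287) was 3.77 kb wide, had a GC content of 54.7% and lay at the end of the gene, with 1763 bp in exons. No peak of Iglon5 touched its start, and the nearest one lay 2.74 kb upstream.

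Among 30 immunoglobulin superfamily adhesion genes of neural cells, Iglon5 included, 19 (63.3%) held a peak. Ncam1, the neural cell adhesion molecule gene, held the most, 14 in 297 kb, followed by Mdga1 with 13. MDGA proteins are relatives that, like IgLON proteins, carry a glycosylphosphatidylinositol anchor. The 12 listed genes of at least 300 kb are closest to the IgLON genes in length, and 7 of them held a peak, with a median of 2.80 per Mb. Kirrel3 with 7 peaks, Cadm1 with 5, Dscaml1 and Sdk1 with 4, Cntn4 with 3 and Dscam and Mdga2 with 2 made up the 7. Cadm2, Cntn3, Cntn5, Cntn6 and Ncam2 held none, and their GC contents, from 35.4% to 38.3%, were below that of Negr1. Cntn4 at 37.8% and Mdga2 at 36.3% lay in the same range and held peaks. Of these 12 genes, the highest value was 15.3 per Mb in Cadm1, so the 10.3 per Mb of Ntm lay within the range of related long genes, as did the absence of peaks in Negr1.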

How the data were processed

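DRIP-seq peaks of primary NSPCs at postnatal day 7 were analysed. The authors trimmed adapters (Trim Galore 0.6.6, per the submitters' processing notes), aligned reads to NCBI37/mm9 without duplicates and used a peak caller based on a Hidden Markov Model. What they deposited is 1 list of start and end positions (unit, base pairs) without counts, signal or scores. The aligner and how replicates were joined are not given in the sources used here, and depth is unknown. The input was not used.

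Positions were converted to 1-based coordinates and intersected with the GENCODE M1 gene limits, an overlap counting from 1 bp. GC content, skew, CpG ratio, repeats and sites of the 5 enzymes were read from the mm9 sequence, which was not masked for repeats. The fragment lengths assume complete digestion. RefSeq promoter sequences of a later build were placed on mm9 by exact match (7 of 7 matched). Calculations used Python 3.11.15, numpy 2.4.6, scipy 1.17.1, pysam 0.24.0 and matplotlib 3.10.9, and the interval steps were tested on simulated data.

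Named genes were the 4 members, Iglon5, the nearest protein-coding gene on each side, the 4 genes nearest each in length and a list of 30 adhesion genes. Members and lists were chosen with earlier results of these data known. Alternatives were a size filter at 1 kb, merging, other overlap rules, gene limits, starts and comparison sequences.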

Additional observations from a re-analysis of the deposited data

How the results depend on the processing

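Of 53 values recomputed under alternatives, 42 stayed close to the values given, 11 moved and none reversed. Most of them are counts, shares or densities, which cannot change sign, and several restate the same peaks. The lack of reversals therefore says little beyond the GC differences. With a filter at 1 kb, the IgLON genes held 5 peaks (Ntm 5, Lsamp 0 and Opcml 0), or 1.43 per Mb, the share of long genes with a peak fell to 36.4%, and the GC difference was 4.20 percentage points. That filter removes peaks by construction. Allowing a peak within 2 kb raised the IgLON starts from 0 to 2. Against the 5 kb on each side of the peaks, the GC difference was 3.92 points. After seeing the data, the counts were also taken without Ntm, which left 3 peaks and a GC difference of 9.07 points, and with Iglon5, which gave 15 peaks. Merging, other overlap rules and other gene limits left the total at 12 or 13. Merging lowered the count of Ntm from 10 to 9.

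No paired analysis was possible because the list joins the replicates into 1 set of positions without counts, and leaving out a replicate was not possible for the same reason. Depth is unknown, so counts of peaks carry no interval.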
